A study of Mus musculus with 70 samples.

Results

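The genes described here are 8 cathepsins (Ctsa, Ctsb, Ctsc, Ctsd, Ctsh, Ctsl, Ctss and Ctsz), the asparaginyl endopeptidase legumain (Lgmn) and cystatin C (Cst3), an inhibitor of cysteine proteases. They were chosen by symbol, with earlier results of these data known, and make up 10 of the 25806 genes listed in the 5 count tables. All 10 were found once in each table and passed the low-count filter in each. The libraries are CEL-Seq2 libraries, a method that counts the 3' ends of transcripts, each made from part of the lysate of 500 sorted mouse microglia (CD11b+ CD45+ Ly6G- CD206-). There were 70 libraries in 17 groups.

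All mice other than the wild-type Cre- mice carried 1 allele of Cx3cr1CreERT2, a knock-in that places a tamoxifen-dependent Cre under control of the Cx3cr1 gene, in the version named Litt (Littman) or the version named Jung. The postnatal table holds 5 Littman Cre+ and 5 wild-type Cx3cr1+/+ (Cre-) libraries, all given tamoxifen (TAM), and 4 TAM and 5 oil libraries of Jung mice that were also heterozygous for Rosa26YFP. The vehicle and UC2288 table holds mice of the Littman line: 5 Cre+ and 3 Cre- libraries with TAM and UC2288 (100 mg per kg), a compound the labels use against CDKN1A (p21), 4 Cre+ and 5 Cre- libraries with TAM and vehicle, and 4 Cre+ libraries with oil and vehicle. The labels name mice of 8 days, 14 days and 6 to 15 weeks of age, and 2 tamoxifen schedules for pups, but tie no age or schedule to a library. The BLZ-titled table holds 4 TAM and 3 oil libraries of Littman mice given BLZ945, an inhibitor of the CSF1 receptor, and 4 TAM and 4 oil libraries of Jung mice with Rosa26YFP. The adult Littman table holds 3 TAM and 4 oil libraries, and the adult-titled Jung table holds 4 TAM and 4 oil libraries without Rosa26YFP. The treatment label names BLZ945 for the adult-titled Jung libraries and not for the BLZ-titled Jung libraries, against both titles, so whether these Jung mice received it is not settled. The labels do not say that replicates are separate animals, so p-values measure the spread between libraries.

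Cathepsins are proteases of endosomes and lysosomes. Cathepsins B, L and S cut within proteins, cathepsins C, H and Z (also called X) mainly remove residues from protein ends, cathepsin D is an aspartic protease, and cathepsin A is a serine carboxypeptidase that also stabilises lysosomal glycosidases. Legumain cuts after asparagine and matures several cathepsins in mice. Cystatin C is secreted and blocks cysteine cathepsins. Microglia, the macrophages of the brain parenchyma, are rich in these transcripts, and cathepsin S and cystatin C are among their most abundant mRNAs.

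RefSeq promoter windows (build GRCm38.p6, 250 bases before to 50 bases after a gene start) were available for 8 of the 10 genes. They are shown for Ctsc, Ctss and Cst3, which were called in several comparisons, and for Ctsd, Ctsl, Lgmn and Ctsa, which share a motif. Capitals mark matches, on either strand, to the core of a binding site of PU.1 (GAGGAAGT), the macrophage lineage factor, to an interferon-stimulated response element (GAAA, any 2 bases, GAAA), or to an E-box (CACGTG) of the kind bound by TFEB, a regulator of lysosomal genes. The Ctsc window (chr7:88277835-88278134, plus strand), the Ctss window (chr3:95526536-95526835, plus strand), the Cst3 window (chr2:148875463-148875762, minus strand) and the Ctsd window (chr7:142387778-142388077, minus strand) read, from 5' to 3':
Ctsc: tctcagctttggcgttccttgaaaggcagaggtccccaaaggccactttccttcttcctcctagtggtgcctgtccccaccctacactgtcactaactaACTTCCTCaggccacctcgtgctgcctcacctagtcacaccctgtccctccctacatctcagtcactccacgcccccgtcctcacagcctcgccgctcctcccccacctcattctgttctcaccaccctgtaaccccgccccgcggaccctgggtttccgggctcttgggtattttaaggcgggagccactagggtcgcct
Ctss: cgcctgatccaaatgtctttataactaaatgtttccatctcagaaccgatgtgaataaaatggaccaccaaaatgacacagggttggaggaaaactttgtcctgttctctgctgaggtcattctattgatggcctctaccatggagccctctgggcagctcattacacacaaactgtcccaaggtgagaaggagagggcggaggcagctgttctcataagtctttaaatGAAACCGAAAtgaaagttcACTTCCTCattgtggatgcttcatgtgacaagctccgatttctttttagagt
Cst3: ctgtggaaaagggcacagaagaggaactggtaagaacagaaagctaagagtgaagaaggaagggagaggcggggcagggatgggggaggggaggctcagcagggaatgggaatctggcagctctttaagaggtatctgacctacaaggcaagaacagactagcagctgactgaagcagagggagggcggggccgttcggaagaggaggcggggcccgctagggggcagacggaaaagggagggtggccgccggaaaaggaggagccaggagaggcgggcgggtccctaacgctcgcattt
Ctsd: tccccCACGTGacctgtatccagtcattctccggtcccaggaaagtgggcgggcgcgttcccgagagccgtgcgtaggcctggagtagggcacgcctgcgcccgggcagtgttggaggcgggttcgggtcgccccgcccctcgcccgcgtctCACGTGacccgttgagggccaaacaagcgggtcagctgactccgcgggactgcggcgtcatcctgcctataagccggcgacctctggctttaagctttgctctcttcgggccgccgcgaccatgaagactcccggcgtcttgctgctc
The PU.1 core was in 3.20% of all 32851 promoter windows, and among the members in those of Ctsc and Ctss. The interferon element was in 3.44% of all windows and in that of Ctss. The E-box was in 7.15% of all windows and in 4 of the 10 windows of the 8 members with one, those of Ctsd and Ctsl and 1 of 2 windows each of Ctsa and Lgmn. The Cst3 window held none of the 3 motifs. Around the E-box, the Ctsl window (chr13:64370736-64370770, minus strand), the Lgmn window (chr12:102439121-102439156, minus strand) and the Ctsa window (chr2:164833746-164833781, plus strand) read:
Ctsl: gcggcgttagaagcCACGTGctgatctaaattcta
Lgmn: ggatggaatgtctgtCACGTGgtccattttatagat
Ctsa: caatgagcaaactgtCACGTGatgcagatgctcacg
A match describes the letters of the window only, and its part in the member results was not tested.

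Levels are given in CPM, counts scaled to the library's column total, and fold changes as edgeR estimates after TMM scaling with their standard errors (SE). A gene was called at a Benjamini-Hochberg adjusted p below 0.05 over all genes tested in its table. Column totals ran from 329329 to 450461 in the postnatal table and from 116083 to 277680 in the vehicle and UC2288 table, and lay between these bounds in the other tables. The lowest member count in any library was 20. All 10 listed microglial markers had counts in every group, and P2ry12, a microglial receptor, was at 743 CPM or above in every library. Summed markers of neutrophils, which the Ly6G gate should remove, reached 2845 CPM in 1 BLZ-titled Littman library. Cx3cr1, from which 1 allele is replaced in Cre+ mice, averaged 1406 ± 109.9 CPM in postnatal Littman Cre+ and 3905 ± 122 CPM in Cre- libraries (SD, n = 5 each). Cdkn1a averaged 802 ± 191 CPM in vehicle TAM Cre+ (n = 4) and 96.0 ± 31.7 CPM in vehicle TAM Cre- libraries (n = 5).

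The first comparison asked how the protease genes differ between Littman Cre+ and Cre- pups that all received tamoxifen. In postnatal Littman Cre+ microglia, 7 of the 10 members were called: Ctsb, Ctsc, Ctsd, Ctsh, Ctss and Ctsz were higher and Cst3 was lower. In all, 7.8% of the 7076 genes tested were called. The members' median log2 fold change was 0.48, and that of all genes tested was 0.00. Cre+ and Cre- libraries did not overlap for 5 members, each higher in Cre+, and for 5.86% of all genes tested in either direction.

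Ctsc (cathepsin C, chr7:88278085-88310888, plus strand) is a dipeptidyl peptidase that activates granule serine proteases. It was at 1028, 601, 639, 626 and 891 CPM in the Cre+ libraries, against 393, 402, 419, 418 and 433 CPM in the Cre- libraries. The Cre- libraries were tightly grouped, and every Cre+ library lay above them, with replicates 1 and 5 highest. The log2 fold change was 0.92 ± 0.12 (SE; edgeR adjusted p = 2.36e-07), or 1.90-fold. Ctsh (chr9:90054152-90076089, plus strand), an aminopeptidase, was at 578, 521, 561, 630.5 and 655 CPM in Cre+ and at 348, 364, 383, 373 and 354 CPM in Cre- libraries. Again no Cre+ library overlapped a Cre- library, and the log2 fold change was 0.74 ± 0.09 (edgeR adjusted p = 1.27e-07). Ctsz (chr2:174427493-174439039, minus strand), a carboxypeptidase, was at 265, 303, 317, 402 and 410.2 CPM in Cre+ and at 184, 224, 207, 237 and 202 CPM in Cre- libraries. Its groups were also separate, with a log2 fold change of 0.73 ± 0.11 (edgeR adjusted p = 5.02e-06).

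Among the endopeptidases, Ctss (chr3:95526786-95556403, plus strand), which processes the invariant chain of MHC class II and stays active at neutral pH, was at 9625, 9346, 9777, 9461 and 8507 CPM in Cre+ libraries, against 6454, 6529, 6329, 6191 and 6349.6 CPM in Cre- libraries. The lowest Cre+ library was above the highest Cre- library, and the log2 fold change was 0.60 ± 0.07 (edgeR adjusted p = 1.69e-08). Ctsb (chr14:63122462-63145923, plus strand) was at 2351, 2408, 2724, 3019 and 3197 CPM in Cre+ and at 2074, 1956, 1904, 1879 and 1604 CPM in Cre- libraries. Its groups did not overlap, and the log2 fold change was 0.58 ± 0.08 (edgeR adjusted p = 1.32e-06). Ctsl (chr13:64359337-64370890, minus strand) averaged 1606 ± 127 CPM in Cre+ and 1393 ± 169.8 CPM in Cre- libraries (SD, n = 5 each), the groups overlapped, and it was not called at an edgeR adjusted p of 0.0512 (log2 0.25 ± 0.08). It was called with DESeq2 (adjusted p = 0.0391) and on leaving out Cre- replicate 1 or 3 or Cre+ replicate 2.

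The aspartic protease gene Ctsd (chr7:142375911-142388038, minus strand) was at 2449, 3149.9, 3408, 4169 and 3951 CPM in Cre+ and at 2730.1, 2686, 2717, 3247 and 2245 CPM in Cre- libraries. Cre+ replicates 1 and 2 lay within the Cre- range and the other 3 Cre+ libraries lay above it; the log2 fold change was 0.37 ± 0.09 (edgeR adjusted p = 0.00414). Ctsa (chr2:164832873-164841032, plus strand) averaged 440.2 ± 87.7 CPM in Cre+ and 429 ± 56.8 CPM in Cre- libraries, and Lgmn (chr12:102394084-102439813, minus strand) averaged 5121 ± 188 CPM in Cre+ and 5053 ± 264 CPM in Cre- libraries (SD, n = 5 each). Neither was called. The 95% interval of the log2 fold change was -0.14 to 0.31 for Ctsa and -0.07 to 0.19 for Lgmn.

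Cst3 (chr2:148871722-148875692, minus strand) moved the other way. It was at 3789.9, 6279, 5699, 8440.2 and 6153 CPM in Cre+ libraries, against 9447, 9979, 9366, 9691 and 7781 CPM in Cre- libraries. Cre+ replicate 4 overlapped Cre- replicate 5, the lowest of its group, and the other 4 Cre+ libraries lay below all Cre- libraries. The log2 fold change was -0.57 ± 0.10 (edgeR adjusted p = 0.000128), that is 1.48-fold lower in Cre+ microglia (95% interval 1.28 to 1.71). Summed microglial markers were at 19744 to 26696 CPM in Cre+ and at 28311 to 32737 CPM in Cre- libraries, with 6 of 10 called lower and 1 higher. The sum includes Cx3cr1, of which Cre+ mice have 1 allele replaced. Cx3cr1 averaged 1406 CPM in Cre+ and 3905 CPM in Cre- libraries. Its lower level cannot be told apart from that difference in genotype. Summed markers of border macrophages were at 106 to 289 CPM in Cre+ and at 87.8 to 128 CPM in Cre- libraries. Lyve1, Cd163, Folr2 and F13a1 were at 0 in every library of both groups, and Ms4a7 had counts in Cre+ only. Summed monocyte markers were at 21.3 to 66.5 CPM in Cre+ and at 2.56 to 53.5 CPM in Cre- libraries, with Ly6c2, Chil3 and Vcan at 0 in every Cre+ library. Summed neutrophil markers were at 0 in every Cre+ library and at 0 to 1097 CPM in Cre- libraries, where a single library held them. The markers above were set beside the members only as levels. Their part in the protease and cystatin results was not tested. In bulk libraries, fewer cells of a type and less RNA per cell cannot be told apart.

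**Figure D1:**
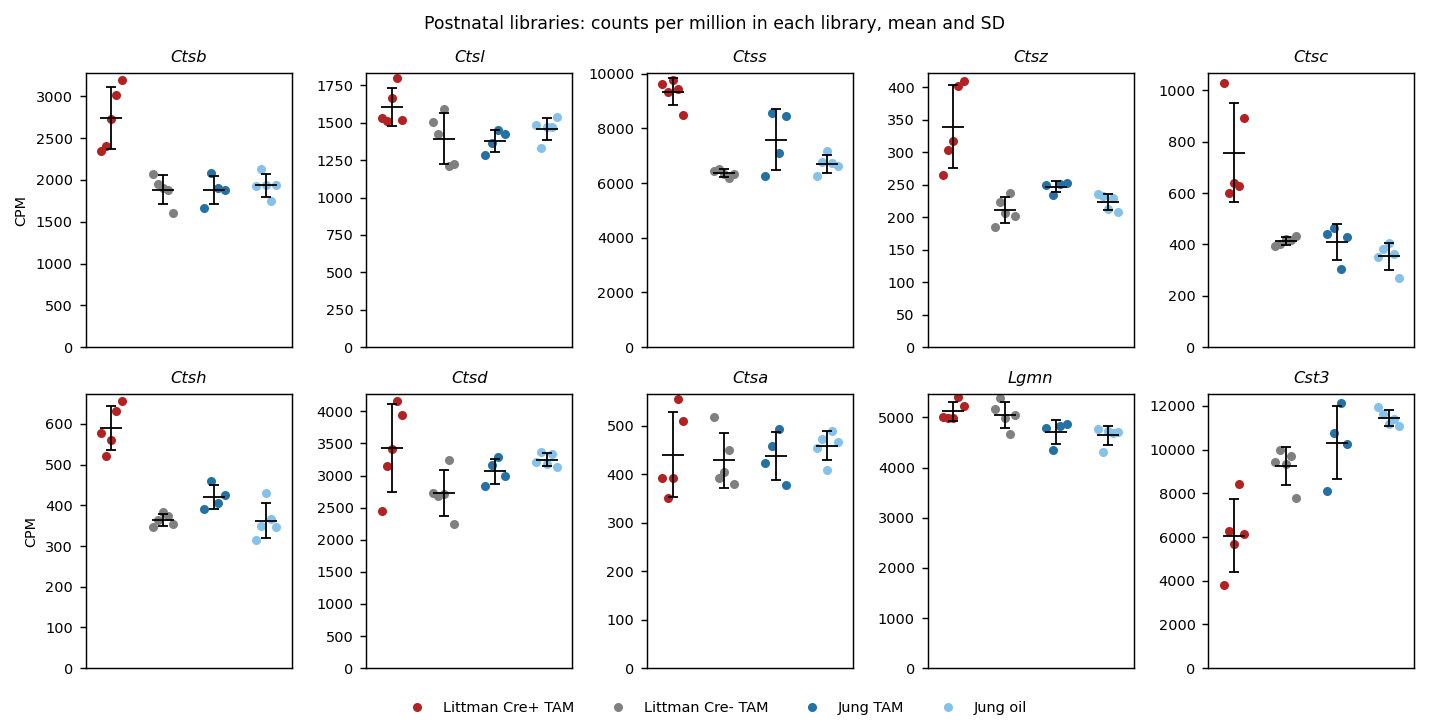
Postnatal libraries. Each panel shows 1 gene, each point 1 library in CPM (vertical axis from 0), and the bar and whiskers the group mean and SD; from left to right Littman Cre+ TAM (n = 5), Littman Cre- TAM (n = 5), Jung TAM (n = 4) and Jung oil (n = 5). The Littman Cre+ points lie above the Cre- points for Ctsb, Ctss, Ctsz, Ctsc and Ctsh, and Cst3 averaged 6072 CPM in Cre+ and 9253 CPM in Cre- libraries.

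The lysosomal neighbours of the members mostly shared the upward direction where they were called. Of 26 other lysosomal hydrolases tested, 7 were higher and 1 lower in Littman Cre+ microglia. Lyz2, encoding lysozyme, averaged 587 ± 116 CPM in Cre+ and 197 ± 61.0 CPM in Cre- libraries, a log2 fold change of 1.61. Arsb, an arylsulfatase, was at a log2 fold change of 1.01, Dpp7, a dipeptidyl peptidase, at 0.87 and Gaa, acid alpha-glucosidase, at 0.67. Of 6 lysosomal activators and lipid carriers, 4 were higher and none lower: Gm2a (0.73), Npc2 (0.64), Grn (0.54) and Psap (0.31, log2 fold changes). Of 14 subunits of the vacuolar ATPase, which acidifies lysosomes, 3 were higher (Atp6v1b2, 0.49, Atp6v1d, 0.47, and Atp6v1f, 0.37), and of 12 lysosomal membrane proteins 1 was (Slc11a1, a metal transporter, 0.43). Of 3 MHC class II genes tested H2-DMa, a peptide-loading chaperone, was higher (0.82), and the 1 other cystatin tested, Cstb, was higher (0.59). None of 6 sorting genes, 2 lysosomal transcription factors and 2 other cathepsins was called. The median log2 fold change was 0.23 over the hydrolases tested and 0.43 over the activators, against 0.00 over all genes. Among all genes 7.8% were called in this comparison, and the 1 of 12 membrane proteins is near that share.

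The Jung libraries compare tamoxifen with oil in pups that carry the other CreERT2 allele. No member was called by edgeR between Jung TAM and oil libraries, where 0.0848% of 7076 genes were called. At unadjusted p below 0.05 there were 2 members (Ctsh and Ctss) and 392 genes, and DESeq2 called 0 members. Ctsc was at 439, 465, 304 and 429.9 CPM in TAM and at 350.0, 381, 407, 362 and 268 CPM in oil libraries, with overlap. Its log2 fold change was 0.21 (95% interval -0.07 to 0.49). Cst3 was at 8106, 10783, 12116 and 10268 CPM in TAM and at 11931, 11645, 11174, 11406 and 11079 CPM in oil libraries. The oil libraries were tightly grouped inside the range of the TAM libraries, and the log2 fold change was -0.15 (-0.37 to 0.07). Over all 10 members the log2 fold changes ran from -0.15 to 0.22, with 95% intervals within -0.37 and 0.49.

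The difference between the Littman contrast (Cre+ against Cre-) and the Jung contrast (tamoxifen against oil) was tested directly. It was called for Ctsb, by 0.62 ± 0.12 on the log2 scale (edgeR adjusted p = 0.00452), where 0.353% of genes were called. Ctss came next with 0.41 ± 0.10 (edgeR adjusted p = 0.0506) and then Ctsc with 0.71 ± 0.19 (edgeR adjusted p = 0.0651), neither of them called. DESeq2 called Ctsb, Ctsc, Ctsh and Ctss. Leaving out Littman Cre+ replicate 2 raised the count of members called to 6. The difference for Cst3 was -0.42 ± 0.15 and was not called (edgeR adjusted p = 0.25). The Littman contrast is Cre+ against Cre- under tamoxifen and the Jung contrast is tamoxifen against oil. Littman Cre- mice have both Cx3cr1 alleles, and all other mice compared here have 1 replaced. Line, Rosa26YFP, the Cx3cr1 allele and kind of control therefore cannot be told apart in this difference.

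Littman Cre+ libraries were also set against Jung TAM libraries, both with 1 CreERT2 allele and tamoxifen; this comparison shares its Cre+ libraries with the first. Here 6 members were called (6.74% of genes): Ctsb (0.59), Ctsc (0.94), Ctsh (0.54), Ctss (0.35) and Ctsz (0.51) were higher and Cst3 (-0.72, all log2) was lower in Littman Cre+. Groups did not overlap for 6 members, all higher in Littman Cre+ (Ctsb, Ctsc, Ctsh, Ctsl, Ctsz and Lgmn), and for 7.97% of genes. In the same comparison 6 of 10 microglial markers were called lower, the monocyte marker Plac8 (2.49) and the border macrophage marker Mrc1 (0.83) were called higher, and the endothelial marker Pecam1 (-2.05) and the astrocyte marker Slc1a3 (-0.56, log2 fold changes) were called lower. Summed microglial markers were at 19744 to 26696 CPM in Littman Cre+ and 27704 to 32239 CPM in Jung TAM libraries, and summed monocyte markers at 21.3 to 66.5 CPM in Littman Cre+ and 2.67 to 14.52 CPM in Jung TAM libraries; their part in the member results was not tested. Between Jung oil and Littman Cre- TAM libraries, edgeR called no member (0.791% of genes); 2 members (Ctsd and Cst3) and 895 genes had an unadjusted p below 0.05, and DESeq2 called 0 members. Cst3 was the 1 member without overlap there, higher in Jung oil (2.87% of genes). By mean Cst3 level the order was Jung oil (11447 ± 348 CPM), Jung TAM (10318 ± 1668 CPM), Littman Cre- (9253 ± 857 CPM) and Littman Cre+ (6072 ± 1659 CPM; SD, n = 5, 4, 5 and 5), and each group overlapped its neighbour in this order.

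The vehicle groups also compare Littman Cre+ with Cre- under tamoxifen, in other libraries, and add Cre+ mice given oil. These mice also received vehicle, and whether their age and tamoxifen schedule match the postnatal libraries is not stated. Carrying CreERT2 and lacking 1 Cx3cr1 allele cannot be told apart between Cre+ and Cre- here either. In vehicle TAM Cre+ microglia, 6 members were called against vehicle TAM Cre-: Ctsc was higher and Cst3, Ctsl, Ctsa, Ctsd and Lgmn were lower. Here 27.2% of 4953 genes were called, so calls were frequent among all genes too. Groups did not overlap for 4 members, 1 higher and 3 lower, and for 25% of genes. Against vehicle oil Cre+, the same 6 members were called in the same directions (31.4% of genes), and groups did not overlap for those 6 (31.8% of genes). Both comparisons share the vehicle TAM Cre+ libraries and are not independent of each other.

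Cst3 showed the largest change of any member. It was at 2944, 3242, 2787 and 2709 CPM in vehicle TAM Cre+ libraries, against 8196, 9912, 9641, 7811 and 11305 CPM in vehicle TAM Cre- and 12793, 13105, 11036 and 16021 CPM in vehicle oil Cre+ libraries. The 4 TAM Cre+ libraries were close together and far below every library of the other 2 groups. The log2 fold change was -1.88 ± 0.28 against Cre- (edgeR adjusted p = 5.90e-06) and -2.30 ± 0.30 against oil (edgeR adjusted p = 3.66e-07), or 3.67-fold and 4.94-fold lower. Ctsc was at 937, 1166, 1066 and 779 CPM in TAM Cre+ libraries, against 348, 431, 439, 381 and 340.3 CPM in TAM Cre- and 395, 289.9, 530.4 and 437 CPM in oil Cre+ libraries. All 4 TAM Cre+ libraries were above all others, with log2 fold changes of 1.16 ± 0.24 against Cre- (edgeR adjusted p = 0.000492) and 1.12 ± 0.26 against oil (edgeR adjusted p = 0.00119).

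Ctsl was at 1170.2, 864, 965 and 1034 CPM in vehicle TAM Cre+ libraries, against 1717, 1713, 1626, 1690.2 and 1832 CPM in TAM Cre- and 2266, 2363, 2162 and 2633 CPM in oil Cre+ libraries. None of the 3 groups overlapped another, and TAM Cre+ was lowest. The log2 fold change was -0.95 ± 0.19 against Cre- (edgeR adjusted p = 0.000256) and -1.35 ± 0.20 against oil (edgeR adjusted p = 3.09e-06). Ctsa was at 256, 374, 313 and 283 CPM in TAM Cre+ libraries, against 396, 402, 564, 461 and 471 CPM in TAM Cre- and 637, 435, 418 and 527 CPM in oil Cre+ libraries. Every TAM Cre+ library lay below both other groups, with log2 fold changes of -0.77 ± 0.20 against Cre- (edgeR adjusted p = 0.00432) and -0.85 ± 0.21 against oil (edgeR adjusted p = 0.00251).

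Ctsd and Lgmn were near the threshold. Ctsd was at 1378, 1211, 1739 and 1262 CPM in TAM Cre+ libraries, against 1681, 1493, 1564, 2099.8 and 1930.1 CPM in TAM Cre- and 2175, 1848, 1826 and 2183 CPM in oil Cre+ libraries. It overlapped between Cre+ and Cre- and did not between tamoxifen and oil (log2 -0.51 ± 0.19, edgeR adjusted p = 0.0428, and -0.65 ± 0.20, edgeR adjusted p = 0.0123). Lgmn averaged 2619 ± 183 CPM in TAM Cre+ (n = 4), 3131 ± 233 CPM in TAM Cre- (n = 5) and 3597 ± 242 CPM in oil Cre+ libraries (n = 4; SD), with log2 fold changes of -0.44 (edgeR adjusted p = 0.0469) and -0.58 (edgeR adjusted p = 0.0112). The calls against Cre- were lost with column totals as the only scaling, where Ctsd was at -0.29 (adjusted p = 0.23) and Lgmn at -0.22 (adjusted p = 0.25). They were also lost on leaving out single libraries, with adjusted p up to 0.11 for Ctsd (without TAM Cre+ replicate 1, 2 or 4, or Cre- replicate 1, 4 or 5) and 0.15 for Lgmn (without any 1 TAM Cre+ replicate, or Cre- replicate 1, 3 or 5). Against oil, the Lgmn call was lost without TAM Cre+ replicate 3 (adjusted p = 0.0531).

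The 4 other members were not called in either comparison. Ctss averaged 4395 ± 756 CPM in TAM Cre+, 5131 ± 461 CPM in oil Cre+ and 4107 ± 553 CPM in TAM Cre- libraries. Its 95% interval against Cre- was -0.44 to 0.26 on the log2 scale, that of Ctsb -0.47 to 0.20, that of Ctsz -0.39 to 0.47 and that of Ctsh -0.86 to -0.03. Ctsh was called lower without TAM Cre+ replicate 2 (adjusted p = 0.0397). Each of these intervals lies below the estimate of the same gene in postnatal Cre+ microglia (0.60 for Ctss, 0.58 for Ctsb, 0.73 for Ctsz and 0.74 for Ctsh). The tables were normalised separately, and the difference between them was not tested. They also differ in vehicle treatment and may differ in age and tamoxifen schedule.

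Between vehicle oil Cre+ and vehicle TAM Cre- microglia, edgeR called 0 members and 0 of 4953 genes (0%). At unadjusted p below 0.05 there were 290 genes, among them 1 member, Ctsl, which was higher in oil Cre+ (log2 0.40, 95% interval 0.03 to 0.76); DESeq2 called 3 genes and 0 members. Ctsl and Ctsz did not overlap between these groups (3.11% of genes). The interval was -0.11 to 0.97 for Cst3 and -0.47 to 0.55 for Ctsc. These groups differ in both genotype and treatment.

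**Figure D2:**
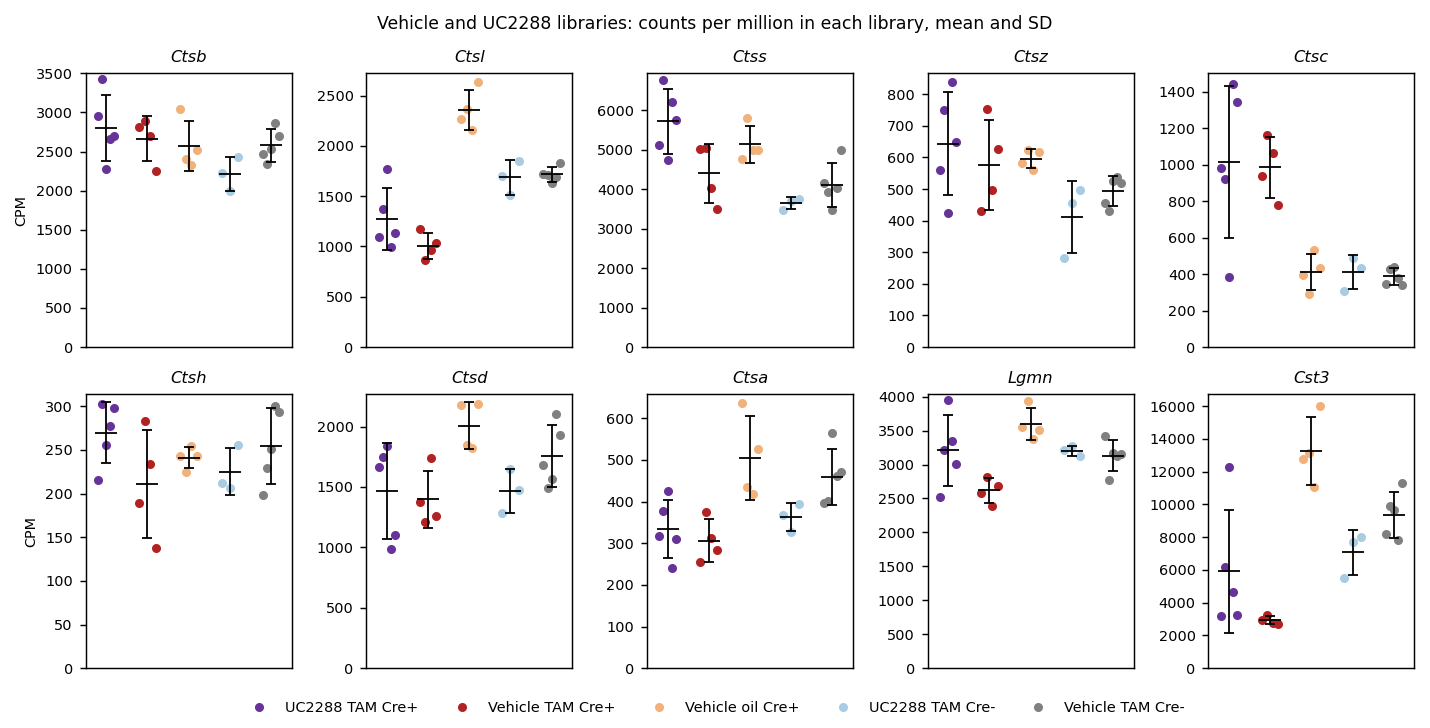
Vehicle and UC2288 libraries. Each panel shows 1 gene, each point 1 library in CPM (vertical axis from 0), and the bar and whiskers the group mean and SD; from left to right UC2288 TAM Cre+ (n = 5), vehicle TAM Cre+ (n = 4), vehicle oil Cre+ (n = 4), UC2288 TAM Cre- (n = 3) and vehicle TAM Cre- (n = 5). Cst3 lies at 2709 to 3242 CPM in vehicle TAM Cre+ and at 7811 to 11305 CPM in vehicle TAM Cre- libraries, and 1 UC2288 Cre+ library stands apart at 12279 CPM.

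The lysosomal lists in vehicle TAM Cre+ microglia held mostly lower calls. Of 25 other hydrolases tested, 7 were lower and 1 higher against Cre-, and 8 were lower and none higher against oil. With 27.2% and 31.4% of all genes called in these comparisons, 8 of 25 is near the share among all genes. Acp2, a lysosomal acid phosphatase, was the 1 higher against Cre- (log2 0.99), and Asah1, acid ceramidase (-0.79), and Hexa (-0.70) were among those called lower. Lyz2, higher in postnatal Cre+ microglia, was lower here, at 228 ± 40.5 CPM in Cre+ and 296 ± 47.9 CPM in Cre- libraries (log2 -0.56). Of 11 lysosomal membrane proteins 3 were lower: Cd68 (-1.25), a macrophage sialomucin, Cd63 (-1.02) and Lamp1 (-0.77). Of 6 activators 1 was lower, Creg1 (-0.93), and of 15 vacuolar ATPase subunits 1 was lower, Atp6v1f (-0.61, log2 fold changes). The 3 of 11 is near the share called among all genes, and the 1 of 6 and 1 of 15 are below it. Ctsf was lower among 2 other cathepsins tested, at 49.5 ± 13.7 CPM in Cre+ and 115 ± 13.1 CPM in Cre- libraries (log2 -1.36). Tfe3, a relative of TFEB, was higher against oil (log2 1.09) and was the 1 lysosomal transcription factor tested. The median log2 fold change was -0.37 over the hydrolases and -0.44 over the 10 members against Cre-, and -0.01 over all genes.

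Microglial markers also fell in these libraries: 7 of 10 were called lower against Cre-, and their sum was at 7273 to 8436 CPM in TAM Cre+, 18084 to 19679 CPM in oil Cre+ and 15729 to 17532 CPM in TAM Cre- libraries. The sum includes Cx3cr1, of which both Cre+ groups have 1 allele replaced. Cx3cr1 averaged 991 CPM in TAM Cre+, 1410 CPM in oil Cre+ and 2541 CPM in TAM Cre- libraries. Summed monocyte markers were at 96.5 to 281 CPM in TAM Cre+, 0 to 21.7 CPM in oil Cre+ and 0 to 23.4 CPM in TAM Cre- libraries, with Ly6c2 and Chil3 at 0 in every TAM Cre+ library. Of these markers Plac8 averaged 187 ± 80.3 CPM in TAM Cre+ and 7.97 ± 8.96 CPM in TAM Cre- libraries. Summed border macrophage markers were lower together with Cst3, at 82.7 to 187 CPM in TAM Cre+, 291 to 362 CPM in oil Cre+ and 271 to 474 CPM in TAM Cre- libraries. Lyve1 and Folr2 were at 0 in every library of all 3 groups, and Cd163 in TAM Cre+ and oil Cre+. Cbr2 was at 0 in TAM Cre+ only. F13a1 went the other way, with counts in TAM Cre+ and 0 in both other groups. Ms4a7 had counts in TAM Cre+ and oil Cre+ and was at 0 in TAM Cre-. Neutrophil markers were at 0 in all 3 groups. The part of these markers in the member results was not tested. Scaling by column totals alone put the median log2 fold change of all genes at 0.21 against Cre- and 0.16 against oil; Cst3, Ctsl, Ctsa and Ctsc kept their calls and directions under it.

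**Figure D3:**
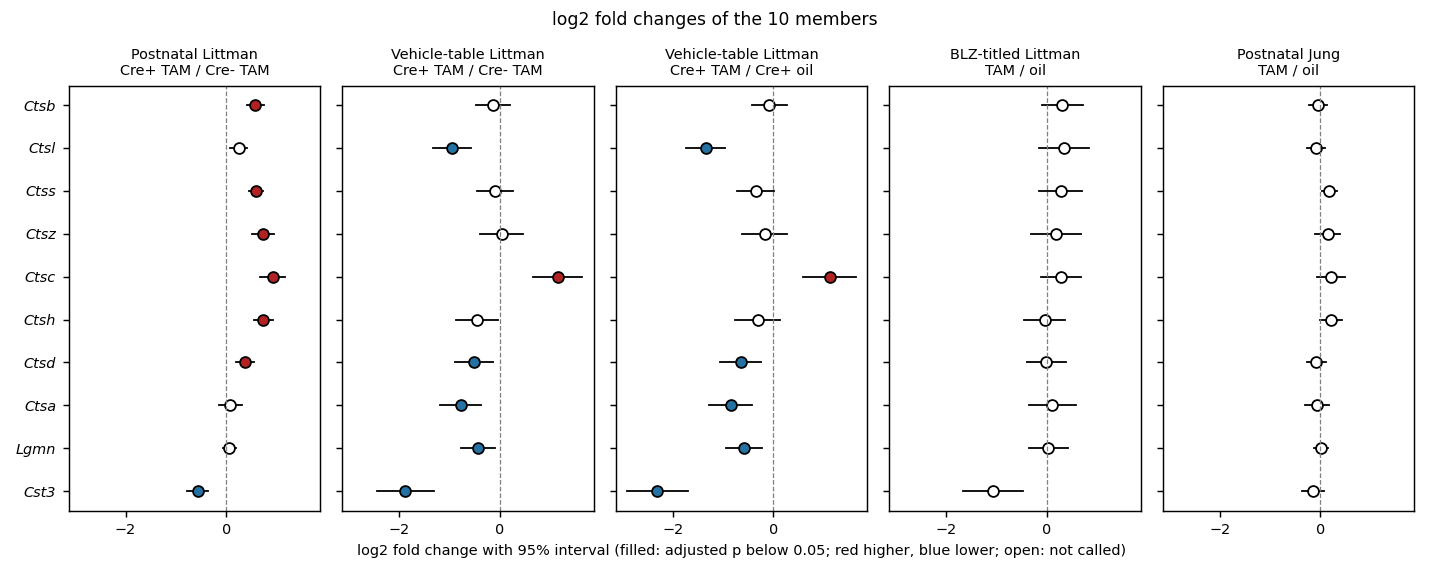
Log2 fold changes of the 10 members (horizontal axis, points with 95% intervals) in 5 comparisons, from left to right postnatal Littman Cre+ TAM over Cre- TAM, vehicle Cre+ TAM over Cre- TAM, vehicle Cre+ TAM over Cre+ oil, BLZ-titled Littman TAM over oil and postnatal Jung TAM over oil; filled points were called at an adjusted p below 0.05, red higher and blue lower. Cst3 is lower and Ctsc higher in the first 3 panels, and no member is called in the last 2.

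The UC2288 groups address p21, the product of Cdkn1a. UC2288 TAM Cre+ replicate 3 stood apart from the 4 other libraries of its group. It had 1803 CPM of Cx3cr1, against 651 to 917 CPM in the others, and 4479.7 CPM of P2ry12, against 823 to 1131 CPM. Its Cdkn1a level was 499 CPM, just under the lowest of the others (502 CPM) and above every Cre- library of the table. Member calls that involve this group are given with and without it. Calls of other genes and marker sums in this group are given with all libraries only.

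In Cre+ mice with tamoxifen, Cst3 was at 3198, 6189, 12279, 4633 and 3269.7 CPM in UC2288 libraries, against 2944, 3242, 2787 and 2709 CPM in vehicle libraries. The highest value, in replicate 3, lay within the range of the vehicle oil libraries, and the lowest UC2288 library lay within the vehicle range. Cst3 was the 1 member called, higher under UC2288, with a log2 fold change of 1.12 ± 0.28 (edgeR adjusted p = 0.0462); 0.727% of genes were called. Without replicate 3 it was 0.65 and not called (edgeR adjusted p = 0.15). The call was also lost without UC2288 replicate 2 or 4 or any 1 vehicle replicate (adjusted p up to 0.20), so the call rests on single libraries. Ctss averaged 5713 ± 818 CPM in UC2288 (n = 5) and 4395 ± 756 CPM in vehicle libraries (n = 4; log2 0.46 ± 0.17, edgeR adjusted p = 0.17), and Ctsc averaged 1016 ± 418 CPM in UC2288 and 987 ± 167 CPM in vehicle libraries (log2 0.11, 95% interval -0.37 to 0.58). Without replicate 3 the log2 fold change was 0.51 for Ctss (edgeR adjusted p = 0.15) and 0.31 for Ctsc (edgeR adjusted p = 0.49), and no member was called. All 10 log2 fold changes lay above 0, between 0.11 and 1.12 with all libraries.

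In Cre- mice with tamoxifen, edgeR called no member between UC2288 and vehicle (0.0202% of genes); no member and 470 genes had an unadjusted p below 0.05, and DESeq2 called 0 members. Cst3 was at 5496, 7719 and 8021 CPM in UC2288 and at 8196, 9912, 9641, 7811 and 11305 CPM in vehicle libraries, with a log2 fold change of -0.53 (-1.13 to 0.08). Over all 10 members the log2 fold changes ran from -0.53 to -0.04, and Ctsa was the 1 member without overlap, lower under UC2288 (log2 -0.44, edgeR adjusted p = 0.52; 5.09% of genes). Summed neutrophil markers reached 646 CPM in a UC2288 Cre- library and were 0 in the vehicle libraries; their part in the result was not tested. The interaction, the UC2288 effect in Cre+ minus that in Cre- mice, was called for Cst3 alone among the members, at 1.65 ± 0.41 (edgeR adjusted p = 0.0398; 1.94% of genes). Without replicate 3 it was 1.16 and not called (edgeR adjusted p = 0.0509), and leaving out each of 10 other libraries also ended the call, with adjusted p up to 0.19; those were UC2288 Cre+ replicate 2, Cre- replicates 1 and 2, vehicle Cre+ replicates 1, 3 and 4, and vehicle Cre- replicates 1, 2, 3 and 5. Column totals alone put the median of all genes at -0.20 in this contrast.

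Under UC2288, Cre+ and Cre- mice were compared as well. Ctsc was at 981, 921, 387, 1445 and 1346 CPM in Cre+ and at 309, 491 and 436 CPM in Cre- libraries. It lay within the Cre- range in replicate 3 and above it in the other 4, and was called higher (log2 1.31 ± 0.28, edgeR adjusted p = 0.00188; 4% of genes), also without replicate 3 (log2 1.50, edgeR adjusted p = 1.32e-05). Ctss was at 5123, 6766, 4723, 6205 and 5746 CPM in Cre+ and at 3463, 3704 and 3745 CPM in Cre- libraries; it was the 1 member without overlap (7.15% of genes; log2 0.66 ± 0.19, edgeR adjusted p = 0.0399). Its call held without replicate 3 (edgeR adjusted p = 0.0160) and was lost without Cre+ replicate 2, 4 or 5 or Cre- replicate 1 or 2, with adjusted p up to 0.21. Cst3 was not called (log2 -0.23 ± 0.29, edgeR adjusted p = 0.81); without replicate 3 it was -0.71 (edgeR adjusted p = 0.0547), still not called, and Ctsl was -0.57 (edgeR adjusted p = 0.0597). Ctsz was called higher without Cre- replicate 3 (adjusted p = 0.0451), and neither with all libraries nor without Cre+ replicate 3. Of the lysosomal genes outside the members, the activator Grn (0.84) and Cd74, the invariant chain cut by cathepsin S (1.16, log2 fold changes), were called, both higher in Cre+. Markers of other cells moved with these calls: Plac8 was called higher (log2 5.33) and Mrc1 lower (-1.80) in Cre+. Summed monocyte markers were at 87.3 to 293 CPM in Cre+ and 0 to 59.9 CPM in Cre- libraries, with Ly6c2 at 0 in every Cre+ library. Summed border macrophage markers were at 119.8 to 306 CPM in Cre+ and 304 to 597 CPM in Cre- libraries. Cd163, Folr2 and Lyve1 were at 0 in every library of both groups, and F13a1 had counts in Cre+ only. Summed microglial markers were at 7449 to 20165 CPM in Cre+ and 15372 to 19365 CPM in Cre- libraries, with Cx3cr1 the 1 of 10 called. Cre+ mice have 1 allele of Cx3cr1 replaced, so its call cannot be told apart from the genotype. The part of all these markers in the member results was not tested.

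In the BLZ-titled table, no member was called by edgeR between Littman TAM and oil (0.0581% of 5163 genes). At unadjusted p below 0.05 there were 1 member, Cst3, and 369 genes, and DESeq2 called 0 members. Cst3 was at 15838, 13498, 21220.4 and 6759 CPM in TAM and at 26559, 33442 and 26619 CPM in oil libraries. All 4 TAM libraries lay below all 3 oil libraries, with replicate 4 lowest. Cst3 was the 1 member without overlap, against 9.22% of genes. As called from Xist, all 3 oil libraries and TAM replicate 1 were male, and TAM replicates 2, 3 and 4 were female. Sex and tamoxifen are therefore nearly confounded in this comparison. The log2 fold change was -1.06 ± 0.29 (95% interval -1.66 to -0.47, edgeR adjusted p = 0.19). Without the low-count filter it was -1.08 and called (adjusted p = 0.00133). Ctsc was at 781, 877, 801 and 1238 CPM in TAM and at 639.5, 822 and 757 CPM in oil libraries, with overlap (log2 interval -0.12 to 0.69). Summed microglial markers were at 14492 to 25049 CPM in TAM and 25376 to 26816 CPM in oil libraries, and neutrophil markers at 0 to 2419.5 CPM in TAM and 0 to 2845 CPM in oil libraries; their part in the Cst3 difference was not tested.

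In Jung mice of the same table, edgeR called 0 members and 0 of 5163 genes (0%) between TAM and oil, with 1 member (Ctsh) and 287 genes at an unadjusted p below 0.05; DESeq2 called 0. Cst3 was at 16701, 31521, 26136 and 26714 CPM in TAM and at 30060.3, 20490.3, 31326 and 13029 CPM in oil libraries, and the groups ran over the same range (log2 interval -0.44 to 0.67). The difference of the 2 tamoxifen effects, Littman minus Jung, was -1.18 ± 0.40 for Cst3 and was not called (edgeR adjusted p = 0.45; 0 of 5163 genes, 0%, with 417 genes and Cst3 at an unadjusted p below 0.05, and 1 gene but 0 members by DESeq2).

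The cathepsins of the BLZ-titled table differed between the lines. Littman oil libraries were higher than Jung oil libraries in 5 called members (9.12% of genes called), and Littman TAM higher than Jung TAM libraries in 4 (5.48%). Groups did not overlap for 6 members in oil (23.8% of genes) and for 4 under tamoxifen (12%). Neutrophil markers were at 0 in every Jung library of the table. In Littman mice they were found in a single oil library (2845 CPM) and a single TAM library (2419.5 CPM). Under tamoxifen 5 of 10 microglial markers were called lower in Littman libraries (Gpr34, Sall1, Cx3cr1, Fcrls and P2ry12), and the sum over all 10 was at 14492 to 25049 CPM in Littman and 28410.2 to 32198 CPM in Jung libraries. In oil 1 was called, Olfml3, which was higher, and the sum was at 25376 to 26816 CPM in Littman and 27232 to 34029 CPM in Jung libraries. Summed monocyte markers were at 12.7 to 107.2 CPM in Littman TAM and 0 to 5.42 CPM in Jung TAM libraries, and at 34.3 to 155 CPM in Littman oil and 5.28 to 15.7 CPM in Jung oil libraries, with Ly6c2, Chil3 and Vcan at 0 in every Jung library. The part of these markers in the member differences was not tested. Ctss was at 17915, 20357 and 18796 CPM in Littman oil and at 13706, 10388, 11939.9 and 9351 CPM in Jung oil libraries, with a log2 fold change of 0.96 ± 0.21 (edgeR adjusted p = 0.00189). Under tamoxifen it was at 21287, 23244, 20223 and 30175 CPM in Littman and at 10841, 14848, 15367 and 13322 CPM in Jung libraries (0.95 ± 0.19, edgeR adjusted p = 0.00206). The lines did not overlap under either treatment. Ctsb was at 2308, 2918, 1949.8 and 2512 CPM in Littman TAM and at 1065, 1283, 1562 and 1219 CPM in Jung TAM libraries, again with no overlap, and its log2 fold change was 1.07 ± 0.19 under tamoxifen and 0.83 ± 0.20 in oil (edgeR adjusted p = 0.000334 and 0.00626).

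Ctsz had log2 fold changes of 0.99 ± 0.23 under tamoxifen and 1.00 ± 0.25 in oil (edgeR adjusted p = 0.00743 and 0.00816). Its call was lost without Littman TAM replicate 2 (adjusted p = 0.0653) or, in oil, without Littman oil replicate 1 (adjusted p = 0.0503). Ctsc was higher by 0.84 ± 0.19 under tamoxifen and by 0.67 ± 0.20 in oil (edgeR adjusted p = 0.00428 and 0.0292). Ctsh was higher in oil (0.74 ± 0.20, edgeR adjusted p = 0.0140) and not called under tamoxifen. In oil the calls of Ctsc and Ctsh were lost without Jung oil replicate 2 or Littman oil replicate 2 or 3, that of Ctsc also without Jung oil replicate 4, and both with column totals alone, which put the median log2 fold change of all genes at -0.30. Under tamoxifen, Ctsl (log2 0.73, edgeR adjusted p = 0.0533) became called without Littman TAM replicate 1 or 3. The other members were not called: the log2 fold change was 0.43 under tamoxifen and 0.58 in oil for Ctsa, 0.41 and 0.54 for Ctsd, 0.03 and 0.18 for Lgmn, and -0.69 and 0.49 for Cst3. Line, Rosa26YFP and the unsettled BLZ945 treatment of the Jung mice cannot be told apart in these comparisons. Sex was unequal as well. As called from Xist, Littman TAM replicates 2, 3 and 4 and Jung TAM replicate 4 were female. In oil only Jung replicate 4 was female. With sex as a covariate, calls over all genes went from 283 to 194 under tamoxifen and from 471 to 400 in oil. Grn, Npc2 and Gm2a, called higher in postnatal Littman Cre+ microglia, were also called in Littman oil libraries of this table, at log2 0.92, 1.02 and 0.84, and Lyz2 at 1.79. Of 26 other hydrolases tested there, 3 were higher and none lower (Lyz2, Glb1 at 1.24 and Scpep1 at 0.98), of 14 vacuolar ATPase subunits 1 was higher (Atp6v0d1, 1.06), and of 4 MHC class II genes 1 was higher (H2-DMa, 0.75). Among all genes 9.12% were called in this comparison, and the counts of hydrolases and ATPase subunits are near that share.

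**Figure D4:**
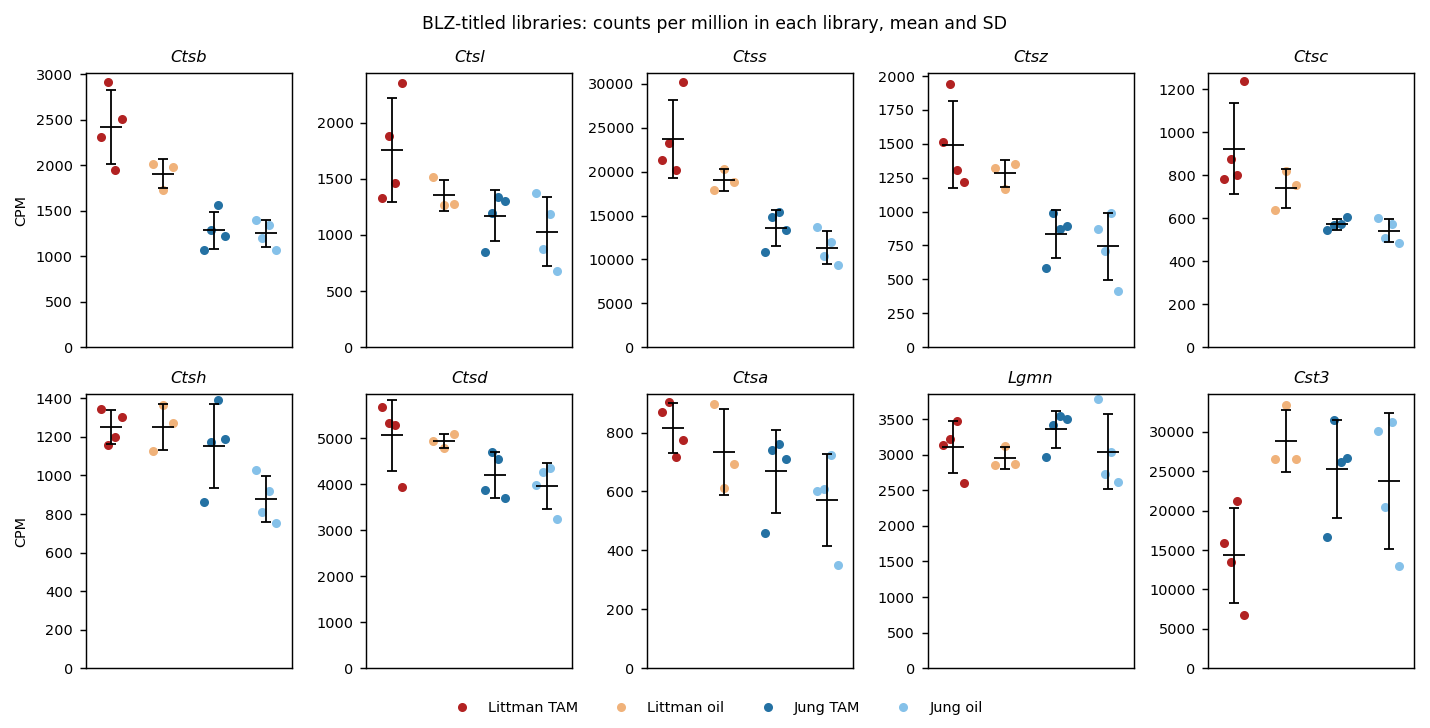
BLZ-titled libraries. Each panel shows 1 gene, each point 1 library in CPM (vertical axis from 0), and the bar and whiskers the group mean and SD; from left to right Littman TAM (n = 4), Littman oil (n = 3), Jung TAM (n = 4) and Jung oil (n = 4). Ctss and Ctsb lie higher in Littman than in Jung libraries, and Cst3 lies at 6759 to 21220.4 CPM in Littman TAM and at 26559 to 33442 CPM in Littman oil libraries.

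In adults, tamoxifen moved no member past the threshold. Between adult Littman TAM and oil libraries edgeR called 0 members (0.0181% of 5512 genes), with no member and 154 genes at an unadjusted p below 0.05; DESeq2 called 0 members. Cst3 was at 16172, 16383 and 20115 CPM in TAM and at 20422, 17482, 10721 and 25963 CPM in oil libraries, and Ctsc at 732, 545 and 658 CPM in TAM and at 673, 736, 617 and 789.8 CPM in oil libraries. The TAM values lay inside the range of the oil values for Cst3, whose log2 interval was -0.57 to 0.45, and the groups overlapped for Ctsc (-0.47 to 0.29). Oil replicate 3 was the lowest of the 7 libraries for every member other than Ctsc and Ctss, and the highest for Ctss. Ctss was the 1 member without overlap (3.92% of genes), at 8433, 9113 and 8780.2 CPM in TAM and 9131, 9483, 10531 and 9223 CPM in oil libraries, with a log2 interval of -0.40 to 0.22. Over all 10 members the log2 fold changes ran from -0.52 to 0.05. In adult-titled Jung mice edgeR called 0 members and 0 of 5111 genes (0%), with no member and 113 genes at an unadjusted p below 0.05; DESeq2 called 0. Cst3 averaged 20171 ± 4844 CPM in TAM and 19495 ± 7033 CPM in oil libraries (SD, n = 4 each), and its log2 interval was -0.44 to 0.61. Over all 10 members the log2 fold changes ran from -0.04 to 0.13. The adult intervals of Cst3 lie above the value of -1.88 found in vehicle TAM Cre+ microglia, but table and control differ and the difference was not tested.

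The balance of inhibitor to proteases within a library does not depend on scaling. Cst3 counts were divided by the summed counts of the 6 cysteine cathepsins Ctsb, Ctsc, Ctsh, Ctsl, Ctss and Ctsz; the ratio compares libraries, not amounts of the genes. It was 0.246 to 0.529 in postnatal Littman Cre+ libraries, against 0.765 to 0.940 in Cre- libraries. In the vehicle table it was 0.279 to 0.325 in TAM Cre+, against 1.02 to 1.40 in oil Cre+ and 0.796 to 1.09 in TAM Cre- libraries, and among BLZ-titled libraries it was 0.174 to 0.787 in Littman TAM, against 1.05 to 1.25 in Littman oil libraries. The Cre+ libraries with tamoxifen lay below their controls without overlap in each of these sets. UC2288 TAM Cre+ libraries spanned 0.276 to 1.25, with replicate 3 highest (0.276 to 0.457 without it), against 0.279 to 0.325 in vehicle TAM Cre+ libraries. In Jung mice the ratio was 0.788 to 1.06 in postnatal TAM and 0.961 to 1.13 in oil libraries, and in adult Littman mice 1.32 to 1.63 in TAM and 0.798 to 1.91 in oil libraries, both with overlap. The ratio combines genes tested above, so it was not tested again.

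**Figure D5:**
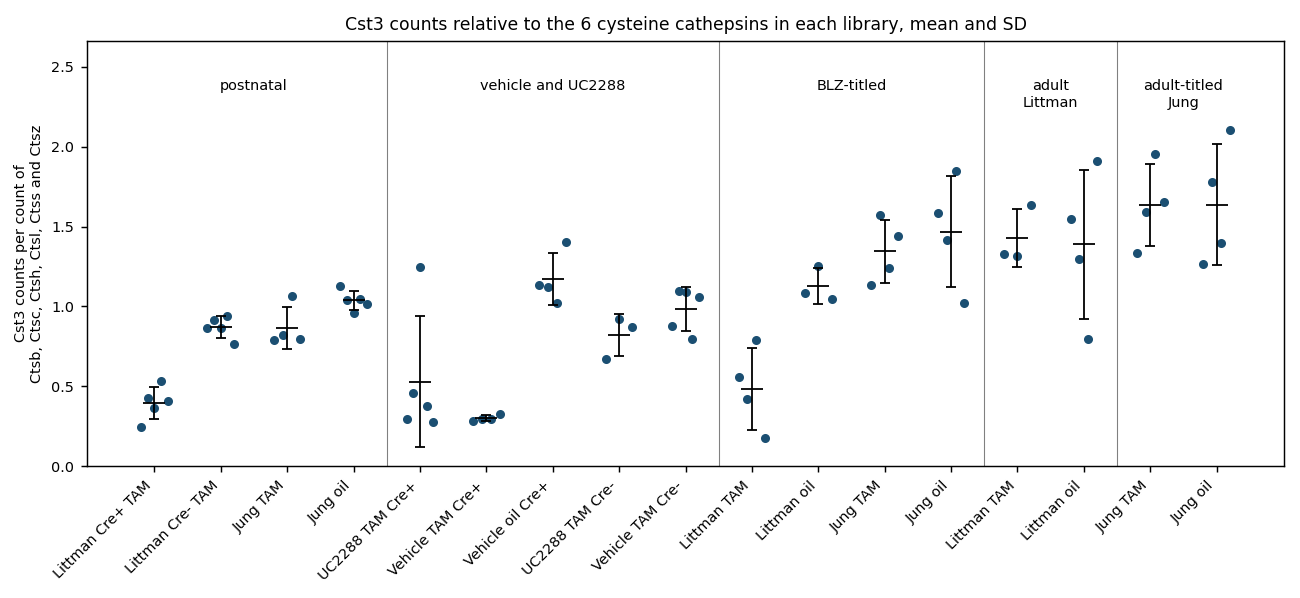
Cst3 counts per count of the 6 cysteine cathepsins (vertical axis, from 0, a ratio without unit) in each of the 70 libraries, by group and table; points are libraries and the bar and whiskers the group mean and SD. The ratio averaged 0.394 ± 0.103 in postnatal Littman Cre+ and 0.869 ± 0.0670 in Cre- libraries, and 0.298 ± 0.0195 in vehicle TAM Cre+ and 0.984 ± 0.138 in TAM Cre- libraries.

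The genes whose log2 CPM most resembled each member over all libraries of a table were looked up among genes with a mean of at least 50 CPM, as a description by Pearson's r with no test, since libraries of a table share groups and depth. Over the 19 postnatal libraries, Ctsc was most like Ifi30 (0.93) and Mpeg1 (0.93), which encode a lysosomal thiol reductase and the macrophage protein perforin-2. Ctss was most like H2-K1 (0.94) and B2m (0.93), and Ctsh like H2-D1 (0.94) and H2-K1 (0.94), all 3 of them genes of MHC class I molecules. Ctsb was most like Grn (0.92), the progranulin gene, and Ly6e (0.87), and Cst3 like Selplg (0.95) and Vsir (0.92). Over the 21 vehicle and UC2288 libraries, Cst3 was most like Trem2 (0.96), a microglial receptor, and Cd68 (0.95), and Ctsc like H2-K1 (0.94) and Axl (0.94), a receptor tyrosine kinase. Ctsl was most like Rpl21 (0.94) and Serinc3 (0.94), and Lgmn like Ltc4s (0.92) and Tyrobp (0.91). MHC class I genes have near copies that can share reads, so those values are uncertain.

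For the remaining members in the postnatal table, Ctsz was most like Cd34 (0.89) and Grn (0.87), Ctsd like Lst1 (0.87) and Hexa (0.85), Lgmn like Nap1l1 (0.87) and mt-Co1 (0.83), Ctsl like Cox4i1 (0.80) and Gorasp2 (0.78), and Ctsa like Laptm5 (0.71) and Hspa8 (0.69). Ctsz and Ctsb shared Grn among their nearest genes. How closely members followed each other after removal of group means differed between tables. The median r over the 45 pairs of members was 0.21 over the postnatal and 0.27 over the vehicle and UC2288 libraries. It was 0.64 over the BLZ-titled, 0.80 over the 7 adult Littman and 0.84 over the 8 adult-titled Jung libraries. Adult Littman oil replicate 3 was the lowest library for most members, and its part in the 0.80 was not tested. Libraries of a table share depth and handling, so these values describe the tables and were not tested.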

How the data were processed

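Per the labels, RNA of sorted microglia was read by CEL-Seq2 with a 10 nt molecular identifier. The values deposited are raw counts of each gene in each library. Of tools, the submitters' processing notes list featureCounts, HISAT2, Trim Galore and UMI-tools, with build GRCm38. Their versions, the annotation, the strand setting and any deduplication are not given. Genes overlapping a member had at most 303 counts over all libraries (Nelfcd, with Ctsz at 8601 counts). Coordinates are from GENCODE M21.

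Groups came from sample titles. With edgeR 4.0.16 (R 4.3.3), TMM factors, filterByExpr and a quasi-likelihood model of all groups were used within each table; p-values were adjusted by Benjamini-Hochberg across every gene tested, and a gene was called below 0.05. The script was tested on simulated data. CPM used column totals. Precision is limited by total counts of 116083 to 450461 per library. Alternatives were RLE factors, column totals only, no low-count filter, DESeq2 1.42.0, the compared groups alone, a replicate block, sex as called from Xist (over 50 CPM), and leaving out each library. Figures were drawn with matplotlib 3.10.9. By the naming rule any of the 10 members could be named in a comparison, with up to 4 called genes of a list with the largest changes and 2 like genes per member; in comparisons with few calls most members are given by their range. The members and gene lists were chosen with earlier results of these data known. No replicate pair was identical. Lyz2 in the vehicle comparison was named after its values were seen. Some genes counted in the lists are not reported here by name.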

Additional observations from a re-analysis of the deposited data

Results flagged for a closer look

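In 140 sets of 4 or 5 libraries (1 member in 1 group), 6 had a highest or lowest library far from the rest of its group; chance gives about 1 in 20. Cst3 was at 7781 CPM in postnatal Littman Cre- replicate 5, the lowest of its group, and it is this library that overlaps the Cre+ range. Lgmn was lowest in postnatal Jung TAM replicate 2, at 4342 CPM, and in postnatal Jung oil replicate 2, at 4304 CPM. Ctsz was lowest in Jung TAM replicate 2 of the same table, at 233.8 CPM. Ctsa was lowest in BLZ-titled Jung TAM replicate 1, at 458 CPM, and Ctsd was lowest in adult Littman oil replicate 3, at 1623 CPM. Postnatal Jung TAM replicate 2 accounts for 2 of the 6.

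Effects differed between groups for 2 members by a test of the difference itself. For Ctsb, the postnatal Littman difference, Cre+ against Cre-, exceeded the Jung tamoxifen effect by 0.62 on the log2 scale. Line, Rosa26YFP, the Cx3cr1 allele and kind of control cannot be told apart in it. For Cst3, the UC2288 effect in Cre+ mice exceeded that in Cre- mice by 1.65 on the log2 scale, a call that did not hold without UC2288 Cre+ replicate 3.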

How the results depend on the processing

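The number of members called stayed within 1.5 times its first value under every alternative, libraries left out included, for 12 of the 19 comparisons: both postnatal Littman Cre+ comparisons, the 3 vehicle comparisons, UC2288 against vehicle in Cre- mice, all tamoxifen comparisons of Jung and adult mice, the BLZ-titled comparison of lines under tamoxifen and the BLZ-titled difference of effects. No called member reversed its direction. For UC2288 against vehicle in Cre+ mice the 1 call became 0 with RLE factors, column totals only, the compared groups alone, the replicate block and sex as a covariate, and 0 to 1 with libraries left out. For UC2288 Cre+ against Cre- the 2 calls became 1 without the filter, with the block and with sex, 0 with the groups alone, and 1 to 3 with libraries left out. The UC2288 by Cre interaction went from 1 to 2 with DESeq2, 0 with the groups alone and 0 to 2 with libraries left out. The postnatal difference of effects went from 1 to 2 with RLE factors, without the filter and with the block, to 4 with DESeq2, and to 1 to 6 with libraries left out. For BLZ-titled oil libraries, Littman against Jung, 5 became 3 with column totals only and 3 to 6 with libraries left out. For BLZ-titled Littman TAM against oil 0 became 1 without the filter, and for postnatal Jung oil against Littman Cre- 0 became 2 with the groups alone. The cause of these moves was not tested. Over all genes, counts of calls moved by over 1.5 times as follows. For UC2288 in Cre+ mice 36 became 2 with the groups alone, 15 with column totals only, 21 with RLE factors, 22 with sex, 120 with DESeq2 and 132 without the filter. For the UC2288 by Cre interaction 96 became 33 with the groups alone, 46 with sex, 58 with the block and 179 without the filter, and for UC2288 Cre+ against Cre- 198 became 111 with the groups alone. For the postnatal difference of effects 25 became 42 with DESeq2 and 55 without the filter, and for postnatal Littman Cre+ against Jung TAM 477 became 314 with DESeq2. For postnatal Jung oil against Littman Cre- 56 became 35 with DESeq2, 85 with sex, 105 with the block, 116 with the groups alone and 145 without the filter; for postnatal Jung TAM against oil 6 became 11 with the block, 12 with the groups alone and 15 without the filter. Without the filter, 3 became 44 for BLZ-titled Littman TAM against oil, 1 became 36 for UC2288 in Cre- mice, 0 became 15 for vehicle oil Cre+ against TAM Cre-, 1 became 10 for adult Littman TAM against oil, 0 became 10 for the BLZ-titled difference of effects and 0 became 6 for adult-titled Jung TAM against oil; other settings gave 0 to 7 calls in these 6 comparisons. No comparison had all pair correlations over 0.1, and samples were not treated as paired by replicate number. That check cannot exclude structure shared by some pairs. Replicate number also went with sex in several groups. In postnatal Littman Cre+ and Cre- libraries, Xist was at 0 to 5.32 CPM in replicates 1 and 2. It was at 657 CPM or above in replicates 3, 4 and 5. Depth limits the vehicle and UC2288 table most: its lowest member count was 20, for Ctsh, where counting error alone is large.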
